A study of Mus musculus with 2 samples.

Results

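The genes described here are 44 members of the Wnt pathway, picked by symbol from the 27998 genes of the count tables: 19 Wnt ligands, 10 frizzled receptors, 9 secreted inhibitors, 4 R-spondins and 2 response genes, Lef1 and Axin2. Their transcripts were counted in single cells of interlimb somites, the segments of paraxial mesoderm between the limb buds, taken from wild-type C57BL/6 mouse embryos with some of the tissue around them. Each stage, E9.5 or E11.5, is a single library made from 3 pooled embryos, so embryos could not be separated, and no test across samples was possible. Cells with at least 200 and fewer than 6500 detected genes and under 15% mitochondrial UMIs (unique molecular identifiers, each standing for one captured transcript) were kept.

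At E9.5 the kept cells numbered 9851, with a median of 12462 UMIs, and at E11.5 they numbered 9595, with 12479. Of these, 4836 (49.1%) and 3697 (38.5%) were assigned to 6 tissues from marker genes that include no Wnt member. The muscle gate (Pax3, Myf5, Myod1, Myog and 5 supporting markers) held 902 cells at E9.5 and 1219 at E11.5, the sclerotome gate (Pax1, Pax9, Nkx3-2) 1423 and 1215, the neural tube gate (Sox1, Sox2, Sox3) 2067 and 161, the ectoderm gate (Epcam, Trp63) 136 and 119, and the endothelial gate (Pecam1, Cdh5) 303 and 75. The dermal gate required En1 and held 908 cells at E11.5 but 5 at E9.5, where En1 was seen in 12 cells of the whole library, so dermal values are given for E11.5 alone. The 10 genes that led each gate by fold included at least 1 of its markers, which gating on those markers favours. Dmrt2, a supporting marker of the muscle gate, was among those that led the E11.5 dermal cells. Ppbp, a platelet gene, led the E11.5 endothelial cells, and the cartilage genes Col2a1 and Col9a1 were among those that led the E11.5 sclerotome cells. Cells with Twist2 and other mesenchyme markers but no En1 were kept apart from the dermal gate, and made up 4.46% of kept cells at E9.5 and 14.3% at E11.5. The libraries shared 30 barcodes, and 1734 gated cells at E9.5 and 981 at E11.5 met their gate by the smallest number of markers or lead allowed.

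Wnt proteins are secreted, lipid-modified signals that bind frizzled receptors together with the co-receptors Lrp5 and Lrp6. In the canonical branch, binding stabilises β-catenin, which joins Tcf and Lef factors on DNA. Secreted frizzled-related proteins and Wif1 bind Wnts outside the cell, Dkk1 and Dkk2 act on the co-receptors, and R-spondins keep frizzled receptors on the cell surface. In the embryo, Wnt1 and Wnt3a of the dorsal neural tube and Wnts of the surface ectoderm are known signals to the neighbouring somite, where they promote the dermomyotome and the onset of myogenesis.

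Levels are given in UPM, the UMIs of a gene per 1000000 UMIs of all the cells of a tissue, and are compared for the same gene between tissues or stages only. A gene was called higher or lower where the ratio reached 2-fold, its exact 95% interval on the log2 scale left out 0, and the cells compared held at least 20 of its UMIs together. These intervals cover counting error only. Of the 44 members, 42 reached 20 UMIs in the gated cells of both libraries together. Wnt8b and Sfrp4 did not, with 11 and 19 UMIs. As a background, the level of each gene in cells gated as red blood (172 cells at E9.5 and 164 at E11.5, median depths 15012 and 16527 UMIs) was read beside it, since these cells should lack most members and their counts include free RNA from other cells. This level is not a uniform floor. Wnt6 at E9.5 had 8.26 UPM in red blood cells and 0.195 UPM in endothelium, and Myog at E11.5 had 75.6 and 2.81 UPM. Whether the red blood gate holds doublets was not tested.

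The ligands that were led by a tissue at E9.5 were all led by ectoderm or neural tube, and those at E11.5 by ectoderm, apart from Wnt2b in dermal cells. A tissue was said to lead a gene where its level was called at least 2-fold above the next gated tissue. Classes outside the 6 tissues, such as mesenchyme with Twist2 but no En1, did not enter this comparison. At E9.5, 18 of 37 members tested were led by 1 tissue, against 15.0% of all 13784 genes tested, and at E11.5 24 of 39, against 17.1% of 14166 genes. The ectoderm led 7 members at E9.5 and 10 at E11.5, against 4.21% and 3.47% of all genes tested, and the neural tube 7 and 4, against 2.96% and 3.25%. The sclerotome led 3 and 2 (0.921% and 0.925% of all genes) and the dermal cells 7 at E11.5 (0.840%). The endothelium led Fzd4 alone at each stage (6.25% and 5.82% of all genes), and muscle led none of the members (0.682% and 2.76%). All members so led stood above their level in the red blood cells. The same tissue led 7 members at both stages, namely Wnt3, Wnt4, Wnt6 and Fzd6 in ectoderm, Fzd3 and Sfrp2 in neural tube and Fzd4 in endothelium, while Wnt3a, Sfrp1, Dkk3, Rspo2 and Rspo3 were led by different tissues at the 2 stages. The share of all genes led at both stages, by the same or by different tissues, was not computed.

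In the ectoderm, the sheet that will form epidermis, 7 of 19 ligands stood at 5 UPM or more at E9.5 and 13 at E11.5. Red blood cells reached this level for 2 ligands at E9.5, Wnt5a and Wnt6, and 2 at E11.5, Wnt5a and Wnt11. The share of all genes at this level was not computed. Wnt6, a ligand made by surface ectoderm, had 248 UPM in ectoderm at E9.5 and 579 at E11.5. The next tissue at E9.5 was muscle, with 19.8 UPM, which put ectoderm 12.5-fold higher. At E11.5 the next was dermal tissue, with 2.20 UPM, 263-fold below. Wnt4 had 93.2 UPM in ectoderm and 27.2 in neural tube at E9.5, and 490 and 205 UPM at E11.5. Wnt3 rose in ectoderm from 15.7 to 170 UPM and Wnt7b from 16.2 to 149 UPM. Wnt7a was led by ectoderm at E9.5 (35.4 against 4.33 UPM in neural tube, 8.18-fold). By E11.5 its levels of 43.5 UPM in ectoderm and 31.4 UPM in neural tube were less than 2-fold apart.

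Several ligands found in the E11.5 ectoderm cells were close to absent from the E9.5 ectoderm cells. Wnt10a had 8 UMIs in the E9.5 ectoderm cells (3.50 UPM) and 139 at E11.5 (81.7 UPM), and Wnt2 had 1 and 67 UMIs (0.437 and 39.4 UPM). Wnt3a, with no UMI in E9.5 ectoderm, reached 31 UMIs (18.2 UPM), at least 13.9-fold higher. Wnt9b and Wnt10b both had 25 UMIs (14.7 UPM) in E11.5 ectoderm, from 4 and 1 at E9.5. At E11.5, Wnt9b had no UMI in the other 5 tissues, which put ectoderm at least 6.96-fold above the floor of 3 UMIs, and Wnt10b had a single UMI in the next tissue, sclerotome. Wnt2 was found more widely, with 163 UMIs (11.9 UPM) in dermal cells, 3.30-fold below ectoderm per UPM, and 35 UMIs (1.62 UPM) in muscle. Wnt8a, a ligand best known from earlier embryos, had 4.70 UPM in E11.5 ectoderm and less than 1 UPM in every other gated tissue of both stages.

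Among these ligands, 4 pairs of genes are neighbours in the genome by their positions in the GENCODE annotation of GRCm38. Wnt6 (chr1:74771892-74785322) lies 6193 bases from Wnt10a on the same strand. Wnt3 and Wnt9b are 24328 bases apart on chromosome 11 on opposite strands, as are Wnt3a and Wnt9a (16175 bases) and, on chromosome 15, Wnt1 and Wnt10b (11706 bases). Wnt6, Wnt10a, Wnt3 and Wnt9b were all led by ectoderm at E11.5. Wnt3a and Wnt9a also had their highest E11.5 levels there. Wnt3a was led by ectoderm, and Wnt9a was not, with 5.88 UPM in ectoderm and 4.02 UPM in muscle. Wnt10b was led by ectoderm, while Wnt1, with 8 UMIs in neural tube and 1 in ectoderm, had too few to be tested at E11.5.

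Of the gated tissues, the neural tube led Wnt1 and Wnt3a at E9.5. Wnt1, the roof plate ligand, had 6.85 UPM there (204 UMIs), 12.1-fold above muscle, the next tissue at 0.565 UPM. Outside the gates, neural crest and glia had 12.1 UPM of Wnt1 (89 UMIs), and all kept E9.5 cells together held 526 UMIs. Wnt3a had 3.32 UPM (99 UMIs), against 2 UMIs in muscle (log2 ratio 4.73, interval 2.84 to 7.79). At E11.5 the 161 neural tube cells held Wnt1 at 5.03 UPM and Wnt3a at 0.629 UPM, and neither change could be called. Wnt7b, by contrast, went from 0.604 UPM (18 UMIs) in 2067 cells to 214 UPM (341 UMIs) in 161 cells, a 355-fold difference. Neurons, which the gate left out, had 12.6 UPM of Wnt7b at E11.5.

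The mesodermal tissues shared another set of ligands. Wnt5a, the main ligand of the non-canonical branch, had 31.1 UPM in muscle, 28.7 in sclerotome, 24.9 in ectoderm, 20.3 in neural tube and 5.06 in endothelium at E9.5. At E11.5 it had 60.9 UPM in dermal cells, 56.7 in sclerotome and 49.3 in muscle, 3 levels within 2-fold of each other, against 14.9 UPM in red blood cells. Wnt11, also non-canonical, had its highest level at E9.5 in muscle (6.84 UPM) and at E11.5 in sclerotome (30.9 UPM) and dermal cells (23.3 UPM). Wnt16 was mainly mesodermal at both stages, with 13.4 UPM in muscle and 11.3 in sclerotome at E9.5 and 11.2 to 14 UPM in muscle, dermal cells and sclerotome at E11.5. Among the gated tissues, Wnt2b was seen mainly in dermal cells (42 UMIs, 3.08 UPM at E11.5, 16.7-fold above muscle). Of 100 Wnt2b UMIs in all kept E11.5 cells, 46 lay in the gated tissues. Wnt5b was spread over tissues, its highest levels being 11.1 UPM in neural tube at E9.5 and 16.5 UPM in sclerotome at E11.5.

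**Figure D1:**
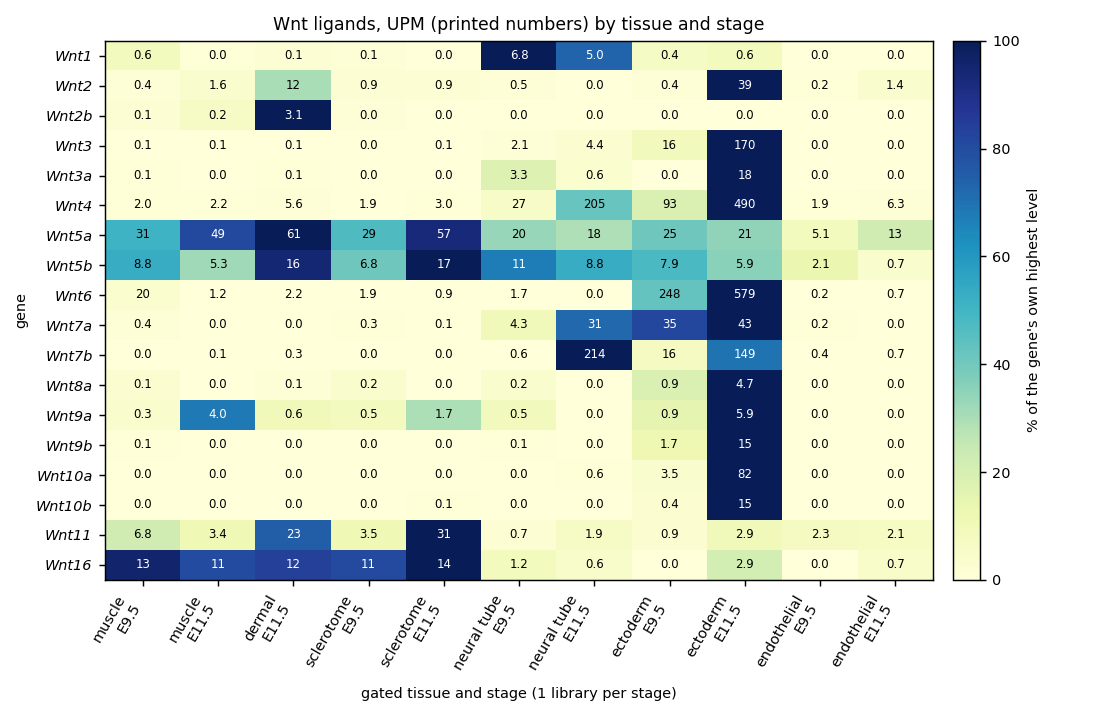
Levels of 18 Wnt ligands (Wnt8b is left out) by gated tissue and stage, 1 row per ligand, with the UPM printed in each cell and the colour giving the percent of the ligand's own highest level. The ectoderm columns hold the highest Wnt6 and Wnt4 levels at both stages (248 and 579 UPM for Wnt6), while the muscle columns hold 5 ligands at 5 UPM or more at E9.5 and 3 at E11.5. Red blood cells, which are not shown, held 2 ligands at that level at each stage.

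Among the receptors, most frizzleds were found in every tissue. Fzd2 had 112 to 160 UPM in muscle, sclerotome, neural tube and ectoderm at E9.5 and 22.6 UPM in endothelium. In red blood cells it had 48.6 UPM. Fzd7 had 31.5 to 45.4 UPM in the same 4 tissues at E9.5. Other receptors were tissue-biased. Fzd4, a receptor with known roles in vessels, was led by endothelium at both stages (38.2 and 68.9 UPM, 2.16-fold and 5.42-fold above sclerotome). Fzd6 was led by ectoderm (25.4 and 91.1 UPM), and Fzd3, known for axon guidance, by neural tube (47.8 and 62.9 UPM). Fzd1 was led by sclerotome at E9.5 (32.2 UPM against 15.3 in muscle) and Fzd8 by sclerotome at E11.5 (33.3 UPM against 14.2 in muscle). Fzd9 was led by neural tube at E9.5 (8.66 UPM, with 2 UMIs in the next tissue, log2 ratio 4.48, interval 2.61 to 7.53), but at E11.5 neural tube and muscle had like levels of 8.80 and 8.35 UPM. Fzd10 stood at 39.6 UPM in neural tube and 38.0 UPM in endothelium at E9.5, and at 75.4 UPM in neural tube and 72.3 UPM in ectoderm at E11.5. Fzd5 stayed at or under 1.56 UPM in all gated tissues.

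Of the 9 secreted inhibitors, Sfrp1 and Dkk3 were led by different tissues at the 2 stages and Sfrp2 by neural tube at both. At E9.5 the neural tube led Sfrp1 (131 UPM), Sfrp2 (245 UPM) and Sfrp5 (1.95 UPM), and all other tissues had at most 25.9 UPM of Sfrp1 and 49.1 UPM of Sfrp2, levels close to those in red blood cells (21.9 and 47.6 UPM). At E11.5 dermal cells led Sfrp1 with 182 UPM, 3.60-fold above sclerotome, while the neural tube kept Sfrp2 at 415 UPM and led Frzb at 83.6 UPM, a frizzled-related protein that had been highest in sclerotome at E9.5 (19.5 UPM). Dkk2 had at most 2.07 UPM in any tissue at E9.5. In E11.5 dermal cells it had 102 UPM, 5.29-fold above muscle at 19.2 UPM, while a class outside the 6 tissues had 51.2 UPM. Of 4710 Dkk2 and 12060 Sfrp1 UMIs in all kept E11.5 cells, 2060 and 4037 lay in the 6 tissues. Unlike Dkk2, Sfrp1 was not among the 10 genes that led dermal cells by fold when other classes were included. Its dermal lead thus holds among the 6 tissues only. Wif1 was likewise led by dermal cells at E11.5 (23.3 UPM against 11.3 in sclerotome). Dkk1 had 6.52 UPM in dermal cells and 5.98 in sclerotome at E11.5, and 3.81 UPM in red blood cells. Dkk3, whose link to Wnt signalling is less clear, had 15.1 UPM in E11.5 neural tube, from 24 UMIs.

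At E11.5 dermal cells led Rspo1, Rspo3 and Rspo4, and sclerotome led Rspo2. At E9.5 sclerotome led Rspo3, ectoderm led Rspo2 with 6 UMIs, and no tissue led Rspo1 or Rspo4. Rspo3 was led by sclerotome at E9.5 (35.8 UPM against 15.8 in endothelium) and by dermal cells at E11.5 (105 UPM against 25.0 in sclerotome). Rspo1 had no more than 2.89 UPM in any gated tissue at E9.5 and 120 UPM in dermal cells at E11.5, 6.39-fold above ectoderm. Of 5637 Rspo1 and 5865 Rspo3 UMIs in all kept E11.5 cells, 2045 and 2284 lay in the 6 tissues. Neither gene was among the 10 that led dermal cells by fold when classes outside the 6 tissues were included. Their dermal leads thus hold among the 6 tissues only. Rspo2 had 167 UMIs in E11.5 sclerotome (10.3 UPM), 5.41-fold above dermal cells. Rspo4 was low, with 2.42 UPM in dermal cells. Of the response genes, Lef1, a DNA-binding partner of β-catenin, had 65.4 UPM in muscle, 46.8 in ectoderm, 43.1 in sclerotome, 40.9 in endothelium and 33.8 in neural tube at E9.5, all within 2-fold. At E11.5 it was led by ectoderm (71.7 UPM), followed by dermal cells (30.6 UPM), and muscle had 7.34 UPM. Axin2, a feedback inhibitor that canonical signalling switches on, had its highest E9.5 level in neural tube (32.4 UPM). At E11.5 the highest was in dermal cells (52.1 UPM), with 39.4 UPM in ectoderm and 10.1 UPM in muscle.

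**Figure D2:**
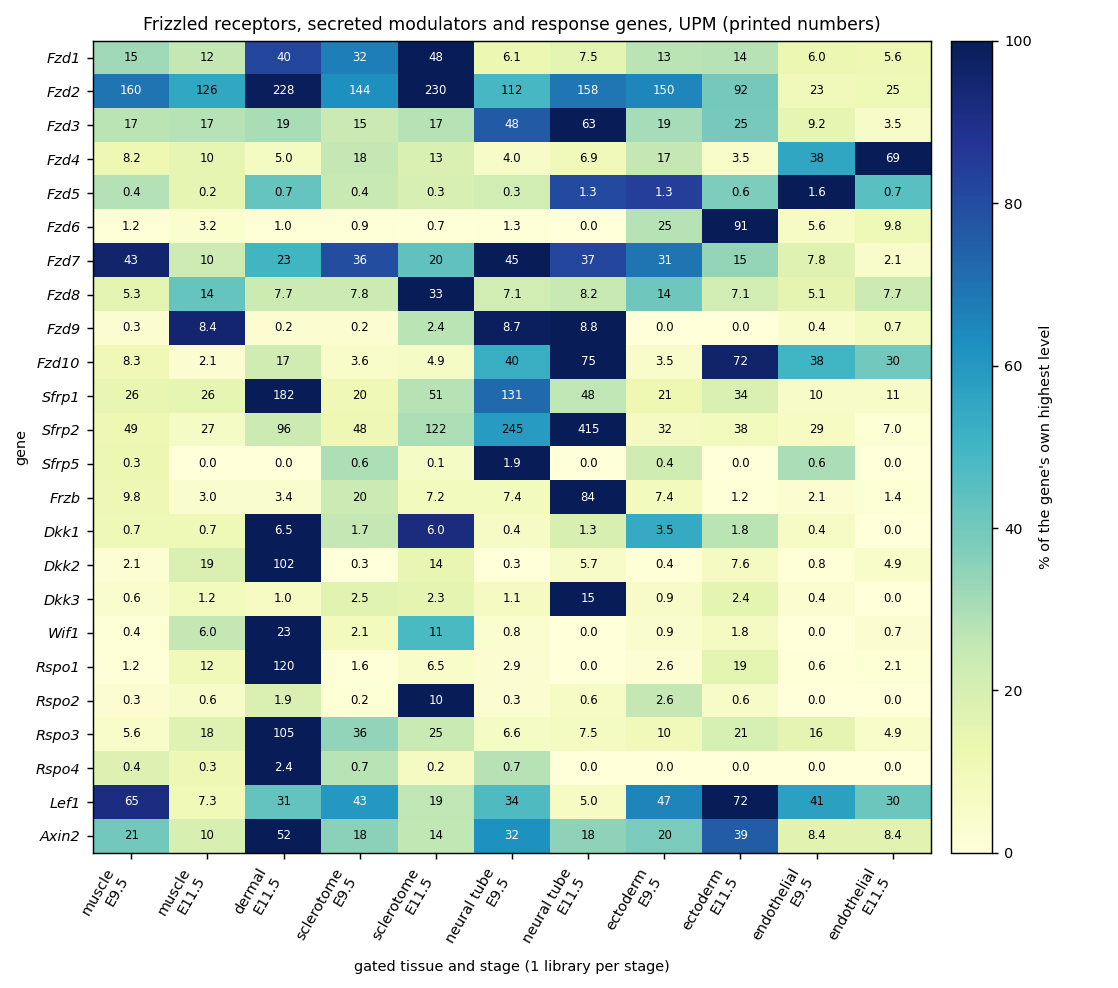
Levels of the receptors, secreted inhibitors, R-spondins and response genes by gated tissue and stage (Sfrp4 is left out), 1 row per gene, with the UPM printed in each cell and the colour giving the percent of the gene's own highest level. Among the gated tissues shown, the E11.5 dermal column stands out for Sfrp1 (182 UPM), Dkk2 (102 UPM), Rspo1 (120 UPM) and Rspo3 (105 UPM). Mesenchyme with Twist2 but no En1 is not shown.

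The stages were then compared within each of the 5 tissues that had cells at both. Over 128 pairs of a member and a tissue, 40 were higher and 18 lower at E11.5, against 13.8% and 4.58% of all pairs of a gene and a tissue. With each cell thinned to 5000 UMIs the lower pairs numbered 10. In ectoderm, 13 of 26 members tested were higher, against 10.8% of all genes, and 2 lower, against 5.76%. All but 4 of the 13 were ligands, and the receptors Fzd6 and Fzd10 (3.50 to 72.3 UPM, 20.6-fold) and the R-spondins Rspo1 and Rspo3 rose with them, while Fzd4 and Fzd7 fell by 2.31 and 1.04 on the log2 scale. The Wnt6 call rests near the limit (log2 ratio 0.95 under a stricter gate), as does that of Fzd7 (-0.58). The Rspo3 call (10.1 to 21.2 UPM) rests on the gate: without cells that carried core markers of another class, its log2 ratio was -0.65. The median log2 ratio was 1.02 over the members tested and 0.023 over all genes. In sclerotome 12 of 29 members were higher, against 17.2%, and 3 lower, against 4.58%. In neural tube 5 of 31 were higher, against 12.8%, and 2 lower, against 3.54%. In endothelium 1 of 14 was higher, against 8.44%, and 4 lower, against 2.98%. In muscle 9 of 28 were higher, against 17.7%, and 7 lower, against 5.92%.

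In sclerotome, which forms vertebrae and ribs, the ligands Wnt11 (3.48 to 30.9 UPM, 8.89-fold), Wnt5b and Wnt9a rose, as did the receptors Fzd8 (7.78 to 33.3 UPM) and Fzd9. The secreted inhibitors that rose were 5 in number: Dkk2 from 0.286 to 14.1 UPM, Wif1 from 2.05 to 11.3, Dkk1 from 1.67 to 5.98, Sfrp1 from 20.3 to 50.7 and Sfrp2 from 47.7 to 122 UPM. Rspo2 went from 4 to 167 UMIs, which is 53.9-fold per UPM. Rspo1 also passed the call, yet its 6.53 UPM at E11.5 was below the red blood level of 11.4 UPM. Free RNA and expression could not be told apart there. Wnt6 fell, but from 1.91 UPM, below the red blood level of 8.26. Frzb fell by 1.45 and Lef1 by 1.20 on the log2 scale. Lef1 was not called after thinning (-0.88), Wnt9a under the stricter gate (1.36) or Wnt6 under 3 alternatives. The cartilage list (Col2a1, Col9a1, Acan, Matn1) moved with this comparison, from a sum of 168 to 1086 UPM, and its part in the result was not tested.

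In neural tube the ligands Wnt4 (27.2 to 205 UPM, 7.53-fold), Wnt7a (4.33 to 31.4 UPM) and Wnt7b rose with the inhibitors Frzb (7.42 to 83.6 UPM, 11.3-fold) and Dkk3, while Sfrp1 fell from 131 to 48.4 UPM and Lef1 from 33.8 to 5.03 UPM. The E11.5 side of this comparison rests on 161 cells with a median of 9318 UMIs, against 12034 at E9.5. Dorsal and ventral cells were also not balanced between the stages. At E9.5 Wnt4 and Frzb were higher in dorsal cells, and Wnt7a and Dkk3 in ventral cells. The part of this balance in the result was not tested. In endothelium Rspo3 fell from 15.8 to 4.92 UPM and Fzd3 from 9.15 to 3.51 UPM, from 7 and 5 UMIs at E11.5. Rspo3 was not called there after thinning. The fall of Fzd7 and Sfrp2 and the rise of Wnt5a there took place at or below the levels of the red blood cells. Of all 58 calls, these and the 2 in sclerotome were the 5 whose higher level did not exceed that background.

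**Figure D3:**
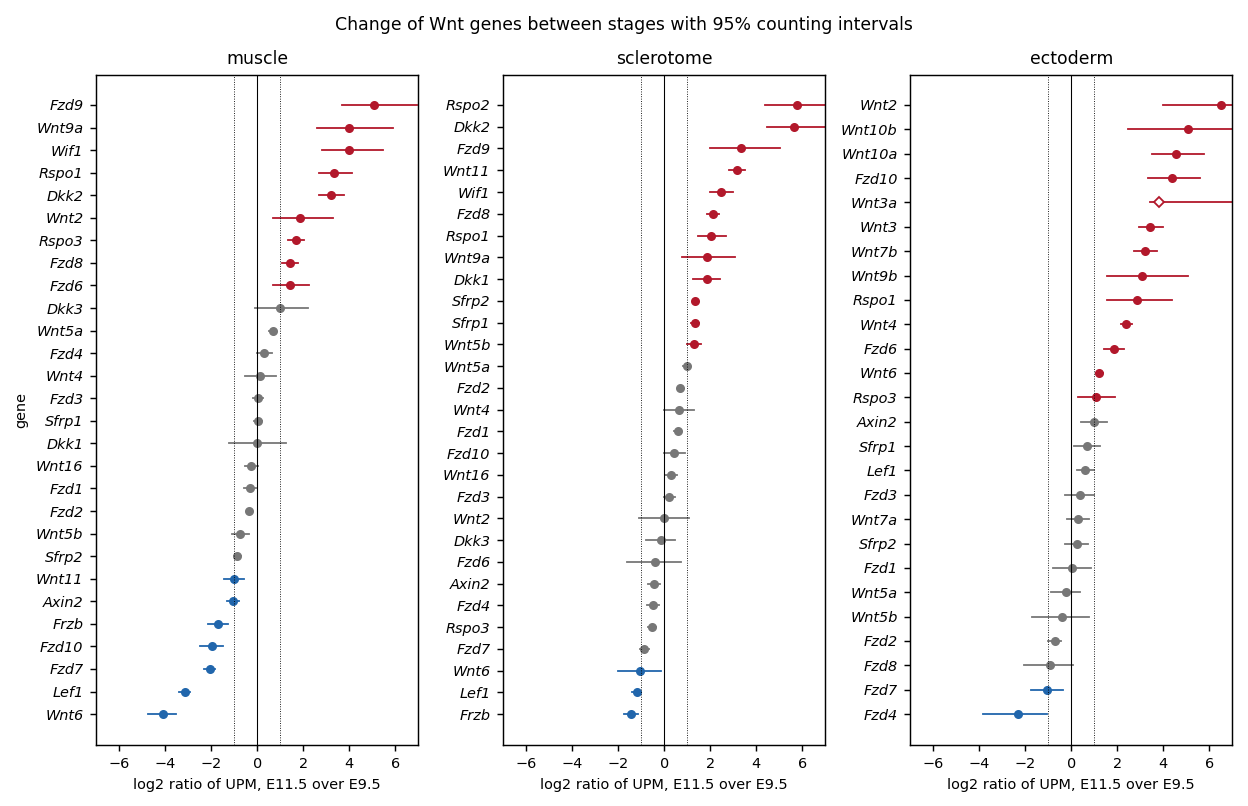
Log2 ratio of the E11.5 to the E9.5 level of each tested member in muscle, sclerotome and ectoderm, with exact 95% counting intervals clipped at the edge of the axis, red for higher and blue for lower calls, and an open diamond for a bound. Wnt6 lies at -4.10 in muscle and at 1.22 in ectoderm, and Wnt11 at 3.15 in sclerotome.

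In muscle, which arises from the dermomyotome, the response genes and the ligand Wnt6 were lower at E11.5. Lef1 fell from 65.4 to 7.34 UPM (1043 to 159 UMIs, log2 ratio -3.16, interval -3.41 to -2.91) and Axin2 from 20.8 to 10.1 UPM (log2 ratio -1.04, interval -1.29 to -0.79). Wnt6 fell from 19.8 to 1.15 UPM (316 to 25 UMIs, 17.2-fold, log2 ratio -4.10, interval -4.75 to -3.51). The share of muscle cells with a Wnt6 UMI was 17.3% at E9.5 (exact 95% interval 14.9 to 19.9%) and 1.80% at E11.5 (1.13 to 2.72%). In red blood cells the shares were 5.81% and 1.22%, and the E11.5 muscle share lies within the red blood interval of 0.148 to 4.34%. Thinned to 5000 UMIs per cell, the shares were 7.61% and 0.770% in muscle (9 and 50 shallower cells left out) and 4.35% and 0.633% in red blood cells (11 and 6 left out). In E9.5 muscle Epcam, a core marker of the ectoderm gate, was at 0.753 UPM, against 532 UPM in ectoderm. Krt5, Krt14, Cldn6 and Grhl3 were at 0 in E9.5 muscle. These genes are on the ectoderm list, which muscle cells had to lead, so their low levels are partly set by the gate. Whether free ectoderm RNA adds to the Wnt6 level in muscle was not tested. Wnt11 fell from 6.84 to 3.42 UPM, which is below its red blood level of 9.36 UPM. The receptors Fzd7 and Fzd10 and the inhibitor Frzb fell as well: Fzd7 from 43.4 to 10.3 UPM, Fzd10 from 8.35 to 2.12 UPM and Frzb from 9.79 to 3.0 UPM. Axin2 and Wnt11 lay near the 2-fold limit, and with cells thinned to 5000 UMIs their log2 ratios of -0.77 and -0.78 were not called. Wnt11 was also not called with at least 1000 genes per cell, where it fell just short of 2-fold, as a mean over cells (-0.95) or with a total without haemoglobin and mitochondrial genes (-0.98).

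Axin2 is a direct target of canonical Wnt signalling, and Axin2 and Wnt6 were lower in muscle at E11.5, with Wnt11 at the limit of the call, so the 250 bases before their start sites are shown, from RefSeq on build GRCm38.p6. All 3 genes are on the plus strand. The windows cover chr11:108920099-108920348 for Axin2, chr1:74771642-74771891 for Wnt6 and chr7:98834862-98835111 for Wnt11. Capitals mark a match to CTTTGAT or CTTTGAA on either strand, the letters that Tcf and Lef factors recognise.
Axin2: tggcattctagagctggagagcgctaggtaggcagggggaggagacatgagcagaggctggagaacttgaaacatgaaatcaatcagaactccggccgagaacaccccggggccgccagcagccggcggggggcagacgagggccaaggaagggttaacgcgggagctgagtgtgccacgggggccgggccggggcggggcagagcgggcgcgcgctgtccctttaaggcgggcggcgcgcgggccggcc
Wnt6: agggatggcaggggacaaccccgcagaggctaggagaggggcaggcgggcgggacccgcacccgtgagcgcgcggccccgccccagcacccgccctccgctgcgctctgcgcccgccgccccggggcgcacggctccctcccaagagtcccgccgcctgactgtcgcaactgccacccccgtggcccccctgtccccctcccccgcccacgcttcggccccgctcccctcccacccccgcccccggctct
Wnt11: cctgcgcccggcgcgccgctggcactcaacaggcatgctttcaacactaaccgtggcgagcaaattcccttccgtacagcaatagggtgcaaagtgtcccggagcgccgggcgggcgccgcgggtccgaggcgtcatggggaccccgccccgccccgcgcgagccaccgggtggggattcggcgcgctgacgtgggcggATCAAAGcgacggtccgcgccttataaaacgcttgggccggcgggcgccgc
The Wnt11 window shown holds 1 match, on the minus strand, 51 bases before its start site. The window of another Wnt11 start site (chr7:98838595-98838844), not shown, holds no match. Neither the Axin2 nor the Wnt6 window holds these letters. Windows were found for 31 of the 44 members. Of these, Wnt5b, Wnt11 and Dkk1 hold a match in at least 1 window, which is 9.68%, against 8.63% of 27025 genes.

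Other members rose in muscle. The receptor Fzd9 (4 to 181 UMIs, 0.251 to 8.35 UPM), the ligand Wnt9a (4 to 87 UMIs, 0.251 to 4.02 UPM) and the secreted inhibitor Wif1 (0.376 to 6.00 UPM, 15.9-fold) had the largest ratios among the muscle calls. Dkk2, also an inhibitor, rose from 2.07 to 19.2 UPM, 9.27-fold. Rspo3 rose from 5.65 to 18.1 UPM, Fzd8 from 5.27 to 14.2 UPM and Fzd6 from 1.19 to 3.19 UPM. Rspo1 rose from 1.19 to 12.1 UPM (10.2-fold), a level hardly above the 11.4 UPM of E11.5 red blood cells, and Wnt2 rose from 0.439 to 1.62 UPM, against 1.04 UPM in red blood cells, and was not called under a stricter gate (log2 ratio 0.067). Wnt5a had 31.1 and 49.3 UPM and was not called. Dermal markers were present in the muscle gate: En1 was at 0.188 UPM at E9.5 and at 25.1 UPM at E11.5, while the summed dermal list was at 236 and 172 UPM, against 1101 UPM in dermal cells. Among muscle cells with no En1, Twist2 or Prrx1 UMI (506 and 704 cells), a set chosen after seeing the data, 7 of 25 members were higher, against 17.0% of all genes, and 9 lower, against 7.78%. Rspo3 was not called there (5.34 to 8.59 UPM), Wnt2 had no UMI, and Dkk2 rose less, from 1.65 to 6.53 UPM, below the red blood level of 8.32 UPM.

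In E9.5 muscle, 860 of 902 cells lacked a UMI of Myod1 or Myog, the factors of commitment and differentiation, while 279 of 1219 E11.5 cells lacked both. Cells that lacked both are called progenitors here. Myf5 was not part of this rule, so the E9.5 progenitors include cells with a Myf5 UMI. Between these progenitors, 5 of 23 members were higher at E11.5, against 13.0% of all genes, and 5 lower, against 5.17%. Lef1 fell from 66.8 to 5.12 UPM, Wnt6 from 18.6 to 1.11, Fzd7 from 44.5 to 12.9, Frzb from 9.92 to 2.22 and Fzd10 from 8.39 to 3.11 UPM. Dkk2 rose from 2.13 to 40.0 UPM, Rspo3 from 5.53 to 27.8, Wnt5a from 31.1 to 72.1, Rspo1 from 1.26 to 10.7 and Wnt2 from 0.399 to 3.34 UPM. The E11.5 level of Rspo1 was below the 11.4 UPM of red blood cells. Axin2 had 20.4 and 13.1 UPM there and was not called. Progenitors that also lacked En1, Twist2 and Prrx1 (480 and 124 cells) had 4 of 21 members higher, against 10.5%, and 8 lower, against 5.48%. In them Dkk2 rose from 1.61 to 19.8 UPM, Rspo3 from 5.10 to 17.7, Wnt5a from 20.9 to 71.4 UPM, and Lef1 fell from 65.1 to 2.61 UPM and Axin2 from 18.1 to 6.25 UPM.

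Within E11.5 muscle, Fzd9, Wif1 and Wnt9a were higher, and 5 other members lower, in differentiating cells. In 696 cells with Myog against the 279 progenitors, 3 of 27 members were higher, against 7.31% of all genes, and 5 lower, against 4.49%. Fzd9 had 180 UMIs (14 UPM) against 1 UMI in the progenitors (0.222 UPM) and none in the 244 cells with Myod1 but no Myog. Wif1 (8.40 against 3.11 UPM) and Wnt9a (5.60 against 2.22 UPM) were higher too. Wnt16 was lower (4.12 against 19.4 UPM), as were Dkk2 (9.64 against 40.0 UPM), Rspo3 (10.3 against 27.8 UPM), Sfrp1 (17.7 against 42.3 UPM) and Wnt2. The dermal list moved the same way as the lower genes, with a sum of 114.6 UPM in Myog cells, 243 in Myod1 cells and 269 in progenitors, and its part in the result was not tested. Lef1, at 5.12, 7.89 and 7.93 UPM in progenitors, Myod1 cells and Myog cells, was low in all 3 states.

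Within E9.5 muscle, Wnt6 and Wnt11 went with Myf5, the first myogenic factor of the trunk. The 364 cells with a Myf5 UMI had 32.8 UPM of Wnt6 and the 538 without had 9.63 UPM, 3.41-fold lower. For Wnt11 the levels were 12.0 and 2.80 UPM. These 2 were the only calls upward among 20 members, against 1.53% of all genes, and none was lower, against 0.631%. Cells with Lbx1, a marker of migrating limb muscle precursors, held the reverse. In 143 Lbx1 cells Wnt6 had 2.28 UPM, below the red blood level, against 23.3 UPM in the 759 others. In all, 4 of 20 members were lower, against 2.39% of all genes, namely Wnt6, Wnt11, Wnt16 (4.94 against 15.0 UPM) and Rspo3, and 2 were higher, against 1.57%, namely Fzd4 (17.1 against 6.46 UPM) and Dkk2. Lef1 was called in neither split.

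**Figure D4:**
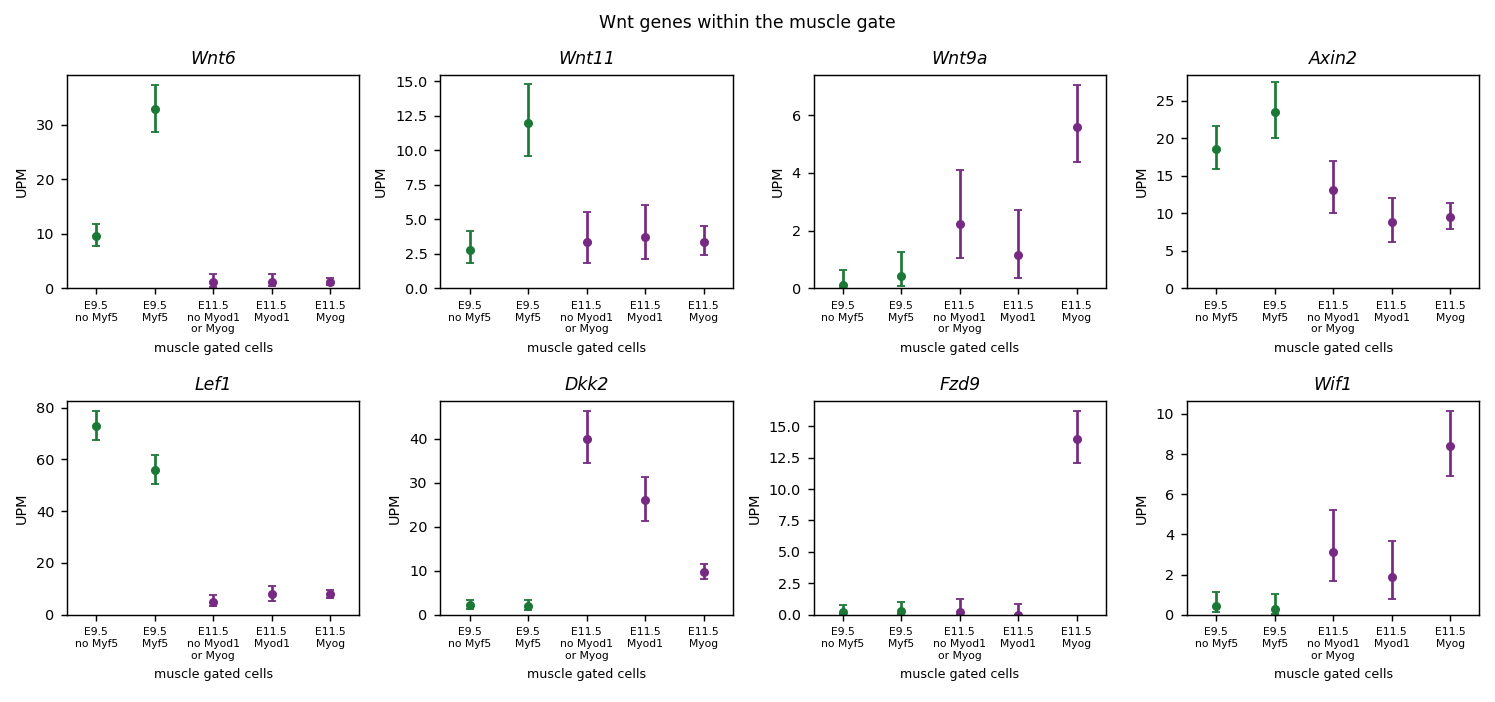
Levels in UPM, with exact 95% counting intervals, of 8 members in muscle cells, split at E9.5 (green) by Myf5 and at E11.5 (purple) by Myod1 and Myog. Lef1 stands at 5.12 to 7.93 UPM in the 3 E11.5 states, Wnt6 is highest in the E9.5 Myf5 cells (32.8 UPM), and Fzd9 in the E11.5 Myog cells (14 UPM).

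The neural tube of E9.5 was divided by dorsal markers (Lmx1a, Gdf7, Msx1, Olig3, Atoh1, Pax3, Pax7; 818 cells) and ventral markers (Shh, Foxa2, Nkx2-2, Olig2, Nkx6-1; 875 cells). Of 28 members tested, 10 were higher dorsally, against 1.93% of all genes, and 4 ventrally, against 2.69%. The dorsal ligands were Wnt1 (15.1 against 0.171 UPM), Wnt3a (7.22 against 0.171 UPM), Wnt3 (4.71 against 0.0854 UPM) and Wnt4 (48.3 against 10.5 UPM). Fzd10 (64.0 against 18.0 UPM), Rspo3 (12.5 against 2.13 UPM), Rspo1, Sfrp5, Frzb and Axin2 (49.0 against 17.0 UPM) were also dorsal. Ventral cells had more Fzd7 (65.7 against 26.3 UPM), Wnt7a (6.49 against 1.98 UPM), Dkk3 and Wif1. In the 34 neural tube cells with a UMI of the roof plate markers Lmx1a or Gdf7, Wnt1 reached 134 UPM, Rspo3 113 UPM and Wnt3a 43.5 UPM, with counting intervals of 107 to 165, 88.9 to 143 and 28.9 to 62.9 UPM. A Wnt1 UMI was present in 3.63% of all neural tube cells at E9.5, against 0.581% of red blood cells. The E11.5 neural tube held 25 ventral cells, too few for this comparison.

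**Figure D5:**
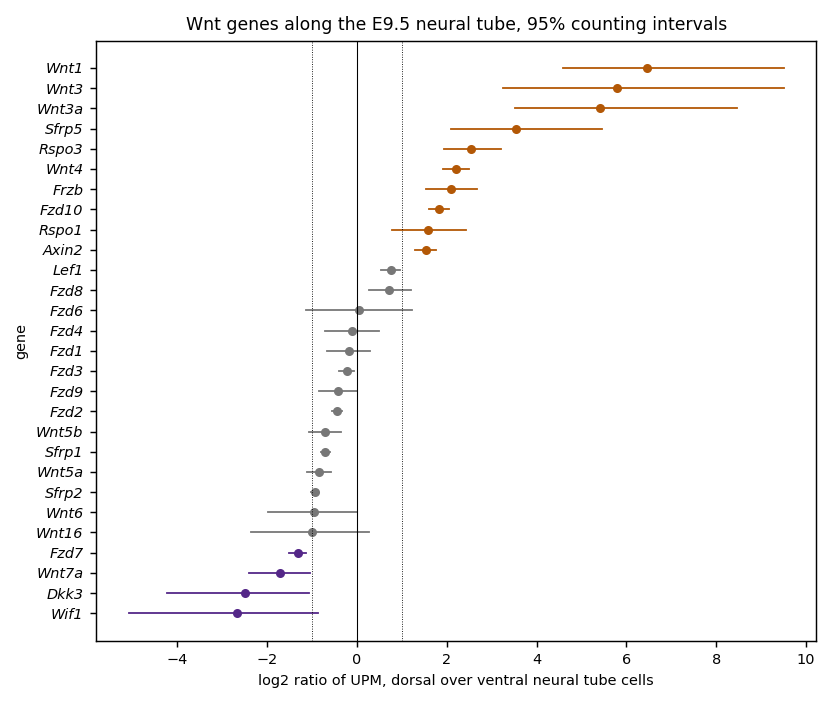
Log2 ratio of the level in dorsal to that in ventral cells of the E9.5 neural tube for the 28 members tested, with exact 95% counting intervals clipped at the edge of the axis. The 10 members called higher in dorsal cells (orange) include Wnt1 at 6.47 and Axin2 at 1.53, and the 4 called lower (purple) include Wnt7a at -1.72.

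Of 59 other genes of the pathway, 58 had a row. In muscle 11 of the 49 tested were higher at E11.5, against 17.7% of all genes, and 9 lower, against 5.92%. Kremen2, a co-receptor for Dkk proteins, went from no UMI to 43.2 UPM, at least 229-fold higher. Sostdc1, a secreted inhibitor, rose from 2 to 25 UMIs (0.125 to 1.15 UPM, log2 ratio 3.20, interval 1.20 to 6.32). It stayed low beside the 12.7 UPM of E11.5 dermal cells. Gpc4, a cell surface glypican, rose from 0.941 to 6.92 UPM (log2 ratio 2.88). Cdx1, a Wnt target of the caudal embryo, went from 24.5 UPM to no UMI, at least 177-fold lower. Sp5, also a Wnt target, fell from 24.2 to 0.923 UPM and Tcf7, a partner of β-catenin like Lef1, from 26.3 to 2.31 UPM. Of the list's feedback and target genes, 4 of 6 tested were lower in muscle (Sp5, Tnfrsf19, Ccnd1, Cdx1) and none was higher, against 5.92% and 17.7% of all genes. This was not particular to muscle. In sclerotome Sp5, Tnfrsf19 and Cdx1 were lower too (3 of 6 tested, against 4.58% of all genes) and none was higher (17.2%). The same 3 were lower in neural tube (3 of 7 tested, against 3.54%) and none was higher (12.8%). In ectoderm Ccnd1 and Cdx1 were lower and Tnfrsf19 was higher. Tcf7 was also lower in sclerotome, neural tube and ectoderm. Over the whole list, 9 of 48 were higher in sclerotome, against 17.2% of all genes, and 6 lower, against 4.58%. In neural tube 6 of 48 were higher (12.8% of all genes) and 6 lower (3.54%), in ectoderm 10 of 44 higher (10.8%) and 7 lower (5.76%), and in endothelium 3 of 34 higher (8.44%) and 1 lower (2.98%). The shares of the list that were higher in sclerotome, neural tube and endothelium were near those of all genes. Wls, needed for Wnt secretion, was among those higher in ectoderm. Ectoderm led Kremen2, Gpc4, Sost and Sostdc1 at both stages, and neural tube led Draxin and Celsr2.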

How the data were processed

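Single-cell RNA-seq libraries (10x Genomics) were made from interlimb somites of mouse embryos, 1 library at E9.5 and 1 at E11.5, each of 3 pooled embryos. The deposited tables hold raw UMI counts per gene and cell barcode (10121 and 10167 barcodes), which the authors made with Cell Ranger 3.0.1 on mm10. Before filtering, these barcodes held 149368952 and 136655763 UMIs in all. Filters as in the study's methods were applied: at least 200 and fewer than 6500 genes and under 15% mitochondrial UMIs per cell.

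Cells were assigned to a tissue where a core marker, at least 2 (muscle) or 3 (other tissues) markers of its list and a lead of 1 marker over every other list were detected. The core marker of the dermal gate was En1 alone, since Twist2 was also found in cells without En1, a choice made from marker counts. Cells with 3 markers of a side class (neurons, neural crest and glia, blood, nephric and lateral plate cells) or 2 of the forming somite were left out, as were cells of Twist2 mesenchyme without En1. No doublet caller was run. The gene cap and the lead limited doublets, and the clean gate removed cells with 2 core markers of another class.

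For each class, the UMIs of a gene were added up across its cells and scaled to 1000000 UMIs of the class. Ratios carry the exact 95% interval of a ratio of 2 Poisson counts, shares of cells the exact Clopper-Pearson interval, and a class at 0 was set to a floor of 3 UMIs. Each fit ran over all genes, and the share of all genes called is printed beside the counts of members called. No such share was computed for members led at both stages, called in opposite directions or standing at 5 UPM or more. No p-value was computed, since each stage is 1 library. The ratio and lead calls were tried before use on simulated Poisson counts, the model behind the intervals. Changes above 2-fold were planted in well-counted genes, and leads were tried between a pair of classes. This trial does not cover calls near the limits of 2-fold and 20 UMIs, or spread beyond counting error. The text accounts for all members by role, names those with at least 20 UMIs, and names of the other pathway genes the 3 highest and 3 lowest ratios in muscle and those led at both stages by the same tissue, besides a few chosen after their values were seen. The members and lists were chosen with earlier results of these data known. Python 3.11.15, numpy 2.4.6, scipy 1.17.1 and pandas 2.3.3 were used.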

Additional observations from a re-analysis of the deposited data

Results flagged for a closer look

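For 7 members the calls between E9.5 and E11.5 went in opposite directions in different tissues. How many of all genes did so was not counted, so this number has no background beside it. The differences between tissues were not tested. On the log2 scale, Wnt6 had -4.10 in muscle and -1.05 in sclerotome against 1.22 in ectoderm. Its sclerotome call was lost under the clean gate, after thinning and as a mean over cells, and its ectoderm call under the stricter gate. Wnt11 had -1.0 in muscle, a call lost under 4 of the alternatives, and 3.15 in sclerotome. Fzd10 had -1.97 in muscle and 4.37 in ectoderm. Sfrp1 had 1.32 in sclerotome and -1.44 in neural tube, and Sfrp2 had 1.35 in sclerotome and -2.05 in endothelium. The E9.5 endothelial level of Sfrp2, 29.0 UPM, was below the 47.6 UPM of red blood cells. Frzb had -1.71 in muscle and -1.45 in sclerotome against 3.49 in neural tube. Rspo3 had 1.68 in muscle and 1.07 in ectoderm against -1.68 in endothelium. Under the clean gate its ectoderm value was -0.65, and its endothelial call was lost after thinning.

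Other members were higher in cells outside the 6 tissues than in any of the 6. At E9.5, Wnt2 had 43.1 UPM in lateral plate cells and 14 UPM in mesenchyme with Twist2 but no En1, against at most 0.859 UPM in a gated tissue. Rspo1 had 42.1 UPM in lateral plate cells, 18.9 UPM in Twist2 mesenchyme and 14.6 UPM in nephric and intermediate mesoderm, against at most 2.89 UPM. Nephric and intermediate mesoderm also held Wnt11 at 40.6 UPM, Frzb at 59.2 UPM and Dkk1 at 10.1 UPM. In the cells of forming somites Lef1 had 299 UPM, 4.57-fold above muscle, and Wnt16 38.0 UPM. Sfrp5 had 33.8 UPM in neural crest and glia at E9.5 and 11 UPM at E11.5. Rspo4 had 6.29 UPM in Twist2 mesenchyme at E9.5, where Wnt5a reached 142 UPM at E11.5, 2.33-fold above dermal cells. Fzd5 was highest in red blood cells, at 7.94 UPM at E9.5 and 14.2 UPM at E11.5.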

How the results depend on the processing

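Counts of calls were recomputed with a stricter gate, a clean gate, at least 1000 genes per cell, cells thinned to 5000 UMIs, a mean over cells, a total without haemoglobin and mitochondrial genes, and a minimum of 50 UMIs. For muscle, calls were also counted in cells with no En1, Twist2 or Prrx1 UMI, a set chosen after seeing the data. Of 44 counts in all, 1 moved by over 1.5 times: the lower member-tissue pairs, 18 as reported, were 10 when thinned to 5000 UMIs. There Wnt11 and Axin2 in muscle (log2 ratios -0.78 and -0.77) and Wnt6 and Lef1 in sclerotome (-0.56 and -0.88) fell short of 2-fold. Rspo3 in endothelium stayed past 2-fold (-2.33) but was not called. Thinning also left fewer UMIs, and the part of each in the drop was not tested. The higher pairs ranged from 32 to 41 (40 as reported). Members led ranged from 14 to 20 at E9.5 (18) and from 17 to 25 at E11.5 (24). In muscle, with the added set included, members higher ranged from 7 to 10 (9) and members lower from 5 to 9 (7). The added set itself gave 7 and 9. Log2 ratios were also followed under these settings, apart from the minimum of 50 UMIs and the added set of muscle cells. Of 723 such ratios, 691 were counted as unchanged, a group in which sign changes of uncalled ratios were not tracked. Another 20 were no longer called, 11 became called, and 1 called ratio changed direction: Rspo3 in ectoderm, at -0.65 under the clean gate. The cause was not tested. Of 42 shares of cells with a UMI in the leading tissue, 39 left their interval when cells were thinned and 40 when 2 UMIs were asked for, so shares are read beside depth only. No paired analysis was possible because each stage is 1 library. Wnt8b and Sfrp4 had too few UMIs to compare, and the E11.5 neural tube (161 cells), ectoderm (119) and endothelium (75) limit what could be called there.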
